A study of Mus musculus with 24 samples.

Results

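Lin-CD29+CD24+ cells sorted from mouse mammary tumours were compared with the whole Lin- fraction of the same tumours. The members are the 10 tumour arrays of these populations, 5 of each, out of 24 arrays in all. They were chosen by their labels and paired by tumour letter, A to E. The tumours are independent mammary adenocarcinomas of C57BL6/J mice that carry 1 mutant allele of Apc (Apc+/1572T). CD29 is integrin beta 1 and CD24 is a small surface glycoprotein. Lin- cells are those without lineage markers on their surface, and the study's text names CD29hiCD24+ as its stem cell gate. By its name, the Lin- fraction is the parent gate, so it also holds cells of the CD29+CD24+ gate, and a difference sets a subset against the whole. Normal CD29+CD24+ and Lin- cells, 3 arrays of each, came from pools of mammary glands of C57BL6/J Apc+/+ mice, and 5 further tumour arrays hold CD29hiCD24+ cells. Each population was a sort of 10000 cells, and the labels give no age, parity or lineage antibodies.

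Apc is the scaffold of the complex that marks beta-catenin for destruction, and its loss leaves Wnt target genes active. The mammary epithelium has luminal cells with keratins 8 and 18 and basal cells with keratins 5 and 14. Wnt-driven mammary tumours can also hold squamous areas, in which cells leave a basal layer, switch to keratins 1 and 10 and build a cornified envelope from small proline-rich proteins that transglutaminase cross-links. Around the epithelium lie fibroblasts, pericytes and endothelial cells, which the lineage markers of a sort may remove in part.

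Values are log2 signals per probe set, and a difference of 1 is a 2-fold change. Signals of the 10 arrays ran from 0.75 to 16.06 with array medians of 3.30 to 3.37, and the arrays correlated with each other at 0.967 to 0.992. Values under 2.84, the 40th percentile of the tumour arrays, are called the low band, and differences that start there are compressed. Calls were made with limma over 12975 genes, with the tumour as a block, at a threshold of 0.05 on the p-value adjusted by Benjamini and Hochberg's method. The fit also held the CD29hiCD24+ arrays of the tumours, which add to its estimate of spread. Its standard errors (SE) are therefore not those of the 5 paired differences alone. Actin probe sets at the 3′ end exceeded those at the 5′ end, which grows as RNA is shortened, by 2.06 ± 0.36 in CD29+CD24+ and 2.09 ± 0.32 in Lin- arrays (SD, n = 5 each), so the gates differed by less than their spread.

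Tumour D stood apart from the other tumours. Its differences across genes correlated at 0.21 with the mean of the other 4, against 0.50 to 0.66 for the others. Its excess of actin 3′ over 5′ signal was the highest, at 2.58 in CD29+CD24+ and 2.56 in Lin- cells. The arrays of the other tumours lay at 1.68 to 2.21. The same excess for Gapdh hardly set tumour D apart, at 2.19 in CD29+CD24+ and 2.02 in Lin- cells. In the other tumours it was 1.83 to 2.28 in CD29+CD24+ and 1.78 to 1.99 in Lin- cells. Whether RNA quality has a part in the differences of tumour D was not tested. The measured fibroblast genes averaged 6.26 in the Lin- array of tumour D and 8.30 to 10.49 in the other Lin- arrays. Results that rest on stromal genes are therefore given with and without tumour D.

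Of 12975 genes, 7 were called, which is 0.0539%, and all 7 fell in CD29+CD24+ cells. No gene rose past the threshold in limma, and the lowest adjusted p among genes with higher means was 0.0783 (Cadm1, a cell adhesion molecule, 0.65 ± 0.11 SE, higher in 5 of 5 tumours). At an unadjusted p under 0.05, 767 genes were lower and 373 higher. On average 364 genes (2.81%) were at least 2-fold lower and 58 at least 2-fold higher, while the median difference of all genes was 2e-05. In all 5 tumours alike, 725 genes were lower (5.59%) and 606 were higher (4.67%).

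**Figure D1:**
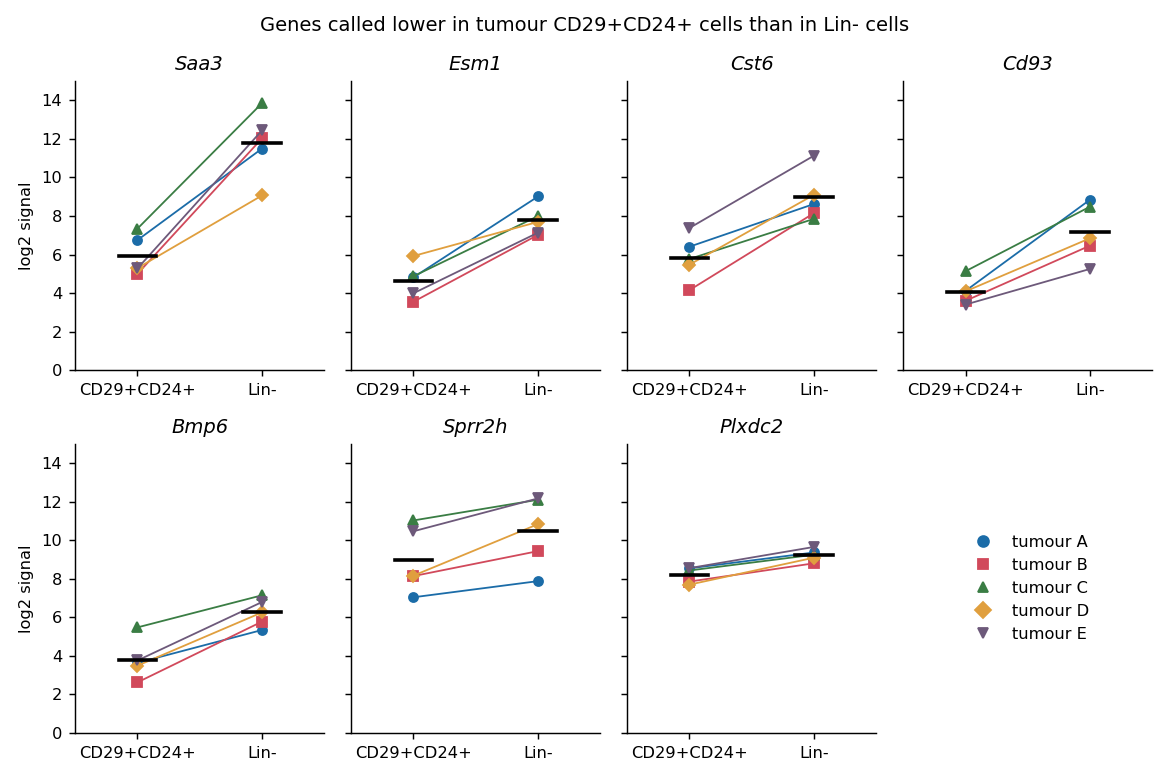
Log2 signal (vertical axis) of the 7 called genes in CD29+CD24+ cells (left) and Lin- cells (right) of tumours A to E; lines join the samples of a tumour and black bars are group means. Every line is lower on the CD29+CD24+ side, and Saa3 has the widest gap, with means of 5.93 and 11.78.

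Saa3, an acute-phase serum amyloid A protein, had the largest drop of the called genes. In tumours A to E its log2 signal was 6.75, 5.0, 7.34, 5.30 and 5.28 in CD29+CD24+ cells, against 11.50, 12.03, 13.85, 9.07 and 12.44 in Lin- cells. The groups did not overlap, and the mean was 57.5-fold lower in CD29+CD24+ cells (-5.85 ± 0.71 SE, limma adjusted p = 0.0243). Among the CD29hiCD24+ arrays, which were not part of this contrast, tumour C reached 11.48 and the other 4 lay at 5.03 to 5.91.

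Esm1 and Cd93, both known from endothelial cells, fell as well. Esm1, which encodes endocan and is known from endothelial tip cells, was at 4.82, 3.55, 4.87, 5.92 and 3.99 in CD29+CD24+ cells of tumours A to E, against 9.01, 7.02, 7.99, 7.70 and 7.14 in Lin- cells. It was 8.82-fold lower (-3.14 ± 0.39, adjusted p = 0.0243), with no overlap between the gates. Cd93, a C-type lectin receptor of endothelial and myeloid cells, had signals of 4.11, 3.60, 5.13, 4.09 and 3.40 in CD29+CD24+ cells, against 8.85, 6.47, 8.49, 6.85 and 5.26 in Lin- cells. The mean was 8.65-fold lower (-3.11 ± 0.44, adjusted p = 0.0498), and the lowest Lin- array, that of tumour E, lay only just above the highest CD29+CD24+ array, that of tumour C. Another Cd93 probe set gave -3.09, while 3 more stayed near 0 difference with means of 3.06 or less.

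Cst6 and Bmp6, a secreted inhibitor and a secreted ligand, fell too. Cst6, cystatin M/E, is a protease inhibitor that limits cathepsin and legumain activity in the cornifying epidermis. Its signal was 6.41, 4.15, 5.77, 5.48 and 7.38 in CD29+CD24+ cells of tumours A to E, against 8.62, 8.15, 7.85, 9.10 and 11.13 in Lin- cells, so the gates did not overlap. The difference was -3.14 ± 0.38 (8.79-fold lower, adjusted p = 0.0243). Bmp6, a ligand of the bone morphogenetic protein family, was at 3.63, 2.62, 5.47, 3.49 and 3.76 in CD29+CD24+ cells, against 5.34, 5.77, 7.14, 6.25 and 6.79 in Lin- cells. Lower in each tumour (-2.46 ± 0.30, 5.52-fold, adjusted p = 0.0243), it overlapped between the gates only through the CD29+CD24+ array of tumour C. In CD29hiCD24+ cells Cst6 lay at 2.42 to 3.76 and Bmp6 at 2.23 to 2.78, below or at the lower edge of the CD29+CD24+ arrays. These third-gate values are a description with no test.

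Sprr2h and Plxdc2 had smaller differences that repeated in each tumour. Sprr2h, a small proline-rich protein of the cornified envelope, was at 7.04, 8.14, 11.02, 8.16 and 10.46 in CD29+CD24+ cells of tumours A to E, against 7.87, 9.43, 12.09, 10.83 and 12.17 in Lin- cells. The tumours differed more from each other than the gates did, and the call (-1.52 ± 0.21, 2.86-fold, adjusted p = 0.0498) rests on the pairing. Its probe set has the suffix that marks a match to several related transcripts, so signal from other Sprr2 genes cannot be told apart. Plxdc2, a transmembrane receptor of the plexin domain containing family, had signals of 8.54, 7.85, 8.43, 7.69 and 8.55 in CD29+CD24+ cells, against 9.36, 8.80, 9.24, 9.09 and 9.65 in Lin- cells. These did not overlap, and the difference was -1.02 ± 0.13 (2.02-fold, adjusted p = 0.0307). Its other probe sets gave -0.87 and -0.67.

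The calls depend on the pairing and on how the spread is estimated. Without the tumour block, with the 10 arrays alone, without tumour B or without tumour E, none of the 7 passed, although the sign of each stayed negative. Leaving out tumour A gave 4 calls, of which 1 was among the 7, and leaving out tumour C gave 3, of which 2 were. Leaving out tumour D gave 85, with all 7 among them. With the tumour as a random block there were 63 calls, and with all 24 arrays in the fit 112.

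The 8 lowest mean differences of the comparison were those of Saa3 and of Col3a1, Lum, Ogn, Dpt, Pdgfrb, Fn1 and Efemp1, which encode matrix proteins and a receptor of stromal cells. No member of the fibroblast and matrix list was called with all 5 tumours, although 20 of its 23 measured genes were at least 2-fold lower in CD29+CD24+ cells and 8 were lower in all 5 tumours. The list median was -2.93. With all 5 tumours kept, 11 of the 23 were called with the tumour as a random block and 15 with all 24 arrays in the fit. Over all 12975 genes these fits gave 63 and 112 calls. Col3a1, the fibrillar collagen of loose connective tissue, was at 7.26, 2.87, 9.64, 7.02 and 3.21 in CD29+CD24+ cells of tumours A to E, against 14.02, 11.41, 13.74, 8.15 and 12.68 in Lin- cells. Its difference of -6.0 ± 1.11 had an adjusted p of 0.0881. Fn1, fibronectin, differed by -4.48 ± 0.82 (adjusted p = 0.0881) and Pdgfrb, the growth factor receptor of pericytes, by -4.69 ± 0.80 (adjusted p = 0.0783), and both were lower in 5 of 5 tumours. In bulk samples fewer cells of a type and less RNA per cell cannot be told apart.

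The stromal difference was small on average in tumour D. Averaged over the fibroblast list, the difference was -4.13, -2.45, -4.15, -0.16 and -3.37 in tumours A to E. The list level was 5.41 to 6.36 in CD29+CD24+ arrays and 6.26 to 10.49 in Lin- arrays. Lum, which encodes the collagen-binding proteoglycan lumican, was at -8.68 to -5.20 in tumours A, B, C and E and at 0.08 in tumour D. Dpt, dermatopontin, and Fap, the fibroblast activation protein, each differed by 0.01 there. Other members of the list did differ in tumour D. Col6a3 (-1.52), Col6a1 (-1.49), Fn1 (-1.46) and Col3a1 (-1.13) were lower, while Dcn (0.68), Prrx1 (0.60) and Fbln2 (0.58) were higher.

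Without tumour D, 85 genes were called (0.655%), of which 84 were lower and 1, Il18r1, the interleukin-18 receptor, was higher by 1.53. These 85 include the 7 genes called with all tumours. Among them were 15 of 23 fibroblast genes, 2 of 6 pericyte genes and 1 of 10 endothelial genes, and the list medians were then -3.31, -2.48 and -1.70. Col3a1 stood at -7.22, Pdgfrb at -5.75 and Fn1 at -5.24 in that fit. Of the 16 measured genes of mesenchymal transition, 4 were called lower without tumour D. With all 5 tumours none was called, but other fits differed. The tumour as a random block gave 2 (63 over all genes) and all 24 arrays gave 3 (112 over all genes). The 4 are Vim (vimentin), Zeb1 (a repressor of E-cadherin), Cdh11 (a cadherin of mesenchymal cells) and the matrix protease Mmp3, all of which fibroblasts express too. Snai2, a zinc finger factor of basal cells, differed by 0.25 ± 0.12 with all 5 tumours.

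**Figure D2:**
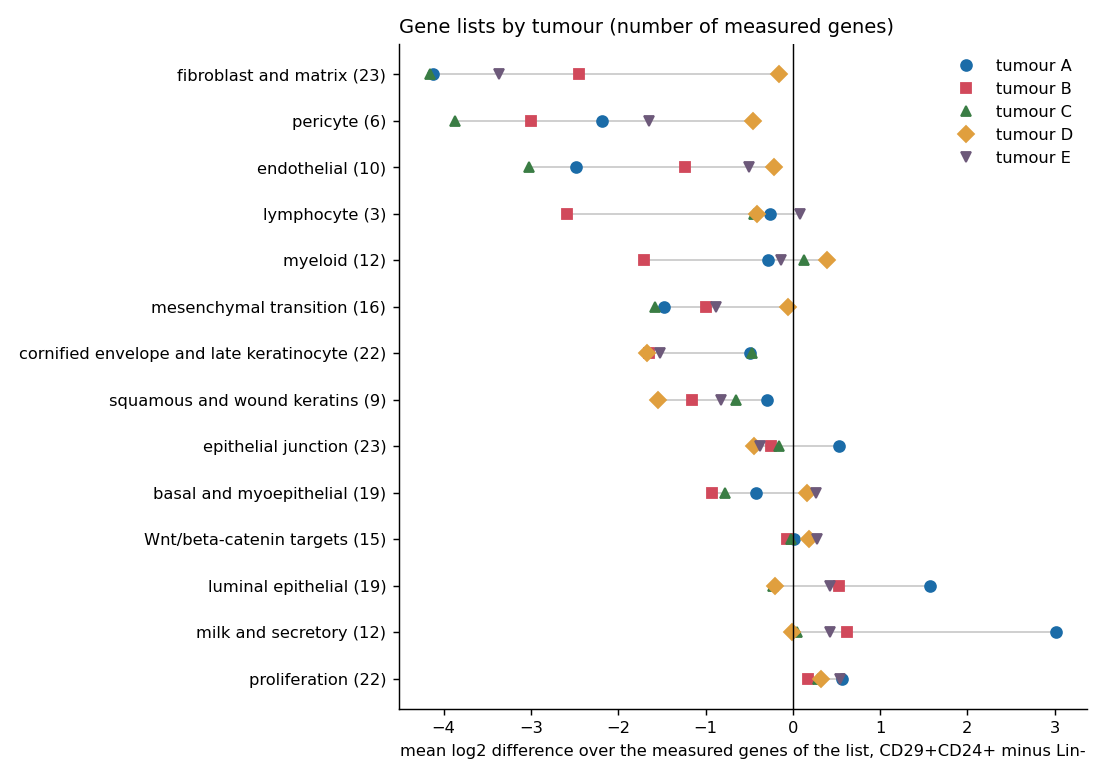
Mean log2 difference, CD29+CD24+ minus Lin- (horizontal axis), over the measured genes of 14 lists, with a symbol for each tumour. Tumour D lies near 0 for the fibroblast list (-0.16) but has the lowest mean of the cornified envelope list (-1.67).

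Pericyte and vascular genes had negative means in each tumour. Over the 6 pericyte genes the mean difference was -2.19, -3.00, -3.87, -0.46 and -1.64 in tumours A to E, and over the 10 endothelial genes it was -2.49, -1.23, -3.03, -0.22 and -0.50. The level of the pericyte list was 3.96 to 5.79 in CD29+CD24+ and 5.13 to 7.98 in Lin- arrays, and that of the endothelial list 3.34 to 4.23 and 3.84 to 6.70. No gene of these lists was called in the main fit. The tumour as a random block gave 2 pericyte and 1 endothelial calls (63 over all genes). All 24 arrays in the fit gave 3 and 2 (112 over all genes). The endothelial list had 6 members lower in all 5 tumours and a median of -1.37. Its lowest value was that of Esam, an adhesion molecule of endothelial tight junctions (-2.79 ± 0.44, adjusted p = 0.0736). Plvap, of fenestrated vessels, was at -2.72 and Cdh5, the cadherin of endothelium, at -2.19. Pecam1, Tie1 and Cldn5 had no probe set above the filter.

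The called genes were lower in tumour D too, where the fibroblast mean differed by -0.16 but the list members were mixed. Tumour D was part of the fit that called these genes, so this drop is partly built into the calls. In tumour D Saa3 differed by -3.77, Cst6 by -3.63, Bmp6 and Cd93 by -2.76 each, Sprr2h by -2.67, Esm1 by -1.77 and Plxdc2 by -1.40. What part stromal cells have in the called differences was not tested, in tumour D or in the other tumours.

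Leukocyte genes had their widest differences in tumour B. Ptprc, the pan-leukocyte antigen CD45 and a usual lineage marker, averaged 3.50 ± 0.77 in CD29+CD24+ and 5.19 ± 2.19 in Lin- cells (SD, n = 5 each), with a difference of -5.02 in tumour B and -1.60 to 0.04 in the others. The 3 measured lymphocyte genes, Ptprc among them, had a mean difference of -2.59 in tumour B and -0.44 to 0.09 elsewhere, with levels of 3.24 to 3.85 in CD29+CD24+ and 3.31 to 6.06 in Lin- arrays. Among 12 measured myeloid genes the median was -0.13, and Tyrobp, the signalling adaptor of myeloid cells, was at -4.17 in tumour B and -1.36 to 0.05 in the other tumours. The 4 genes of MHC class II had a median of -0.63, and none of the leukocyte genes was called.

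Genes of the cornified envelope differed in the same direction in most tumours, including tumour D. Of 22 measured members, 16 were lower in all 5 tumours and none was higher in all 5, against 5.59% and 4.67% of all genes. None was called, against 6 with all 24 arrays in the fit, 2 with the tumour as a random block and 1 without tumour A. Over all genes these fits gave 112, 63 and 4 calls. The list median was -0.95. The mean difference of the list was -0.49, -1.65, -0.47, -1.67 and -1.52 in tumours A to E. Its level was 8.59, 7.84, 9.84, 8.57 and 9.37 in CD29+CD24+ cells, against 9.08, 9.48, 10.31, 10.23 and 10.89 in Lin- cells, so that within each tumour the CD29+CD24+ array was lower while the groups overlapped. Without tumour D the median was -0.84.

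The 4 lowest means of the list were those of Cnfn, Dsc1, Casp14 and Dsg1a. Cnfn (cornifelin) was at -3.11 ± 0.68, Casp14 (caspase 14, a protease of terminal keratinocyte differentiation) at -2.61 ± 0.60, and Dsc1 and Dsg1a (cadherins of suprabasal desmosomes) at -2.93 ± 0.84 and -2.16 ± 0.47. Sprr1b, at -1.41 ± 0.24 with an adjusted p of 0.0783, and Sprr1a, at -1.08 ± 0.20 with 0.0881, had narrower errors. Tgm1, the transglutaminase that cross-links the envelope, stood at -0.87 ± 0.16 (adjusted p = 0.0881). Exceptions were Lor (loricrin, 0.05 ± 0.26) and Klk5 (a kallikrein, 0.14 ± 0.30), and Ivl (involucrin) was at 1.52 in tumour A and -2.43 in tumour D.

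The keratins measured here belong to different layers of a squamous epithelium. Krt10, of the suprabasal epidermis, was lower in all 5 tumours, with differences of -1.32, -2.53, -1.93, -2.45 and -1.21 in tumours A to E (-1.89 ± 0.32, adjusted p = 0.0783). Its partner Krt1 differed by -2.05, -5.69, -1.13, -5.0 and -1.96 (-3.17 ± 0.92, adjusted p = 0.274). Keratins of wounded and hyperproliferative epidermis were close in both gates, with Krt6a at -0.08 ± 0.08 and Krt16 at -0.31 ± 0.14. The basal pair had similar means in both gates: Krt14 averaged 14.64 ± 0.15 in CD29+CD24+ and 14.71 ± 0.16 in Lin- cells, and Krt5 13.95 ± 0.29 and 13.81 ± 0.29 (SD, n = 5 each). Contractile genes of the same basal list, which pericytes and other smooth muscle cells also express, had lower means in CD29+CD24+ cells without a call. Tagln (transgelin) was at -2.27 ± 0.85, Acta2 (smooth muscle actin) at -1.91 ± 0.67, Mylk (myosin light chain kinase) at -1.59 ± 0.65 and Myh11 (smooth muscle myosin) at -1.47 ± 0.71. In tumour D they were at 0.96, 0.23, -0.37 and 0.54, and in tumour E at -1.04, 0.14, 0.18 and 0.08. The lower means therefore rest mostly on tumours A, B and C. The basal list mean was -0.42, -0.92 and -0.77 in tumours A, B and C, and 0.16 and 0.26 in tumours D and E.

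**Figure D3:**
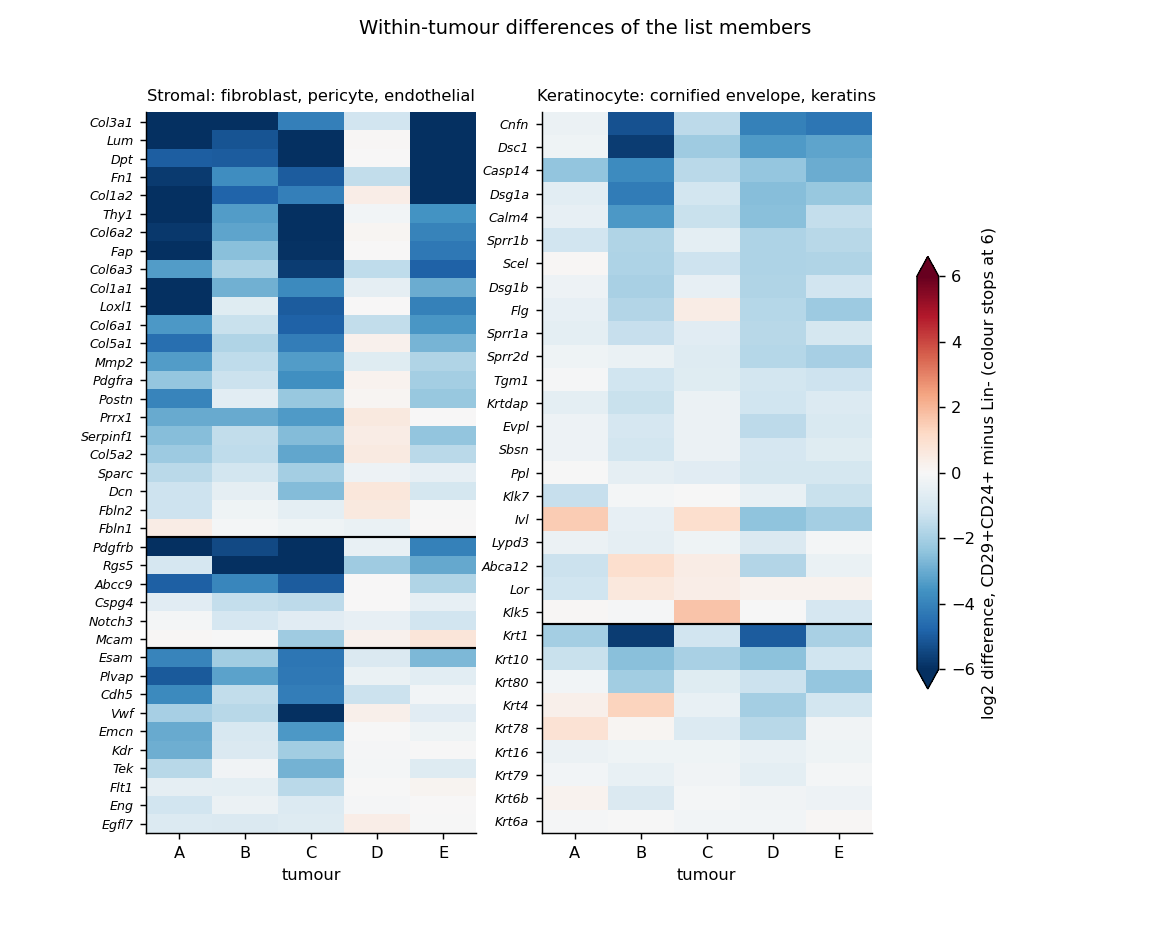
Log2 difference, CD29+CD24+ minus Lin-, of each measured list member (rows) in tumours A to E (columns), with blue for lower in CD29+CD24+ and red for higher; lines part the lists. Among stromal genes the column of tumour D is mostly pale, whereas among keratinocyte genes it is as dark as those of tumours B and E (list means -1.67, -1.65 and -1.52).

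The promoters of 4 envelope genes that were lower in all 5 tumours are shown because they share letters close to the start of transcription. The bases are RefSeq's for GRCm38.p6, 5′ to 3′ on the gene's strand, and end at the last base before the start. Capitals mark TGANTCA, the core that AP-1 factors are known to bind, and TATAAA. These motifs were searched on both strands of the 250 bases before each start, and they share no base in the stretches shown. Sprr2h lies at chr3:92385485-92385684 on the plus strand, Sprr1a at chr3:92485882-92486031 and Sprr1b at chr3:92438780-92438929 on the minus strand, and Krtdap, a keratinocyte differentiation-associated protein, at chr7:30787755-30787904 on the plus strand.
Sprr2h: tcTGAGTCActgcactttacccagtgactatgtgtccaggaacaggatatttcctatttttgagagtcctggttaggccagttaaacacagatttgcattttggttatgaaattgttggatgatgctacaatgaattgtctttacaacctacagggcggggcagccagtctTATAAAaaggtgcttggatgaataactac
Sprr1a: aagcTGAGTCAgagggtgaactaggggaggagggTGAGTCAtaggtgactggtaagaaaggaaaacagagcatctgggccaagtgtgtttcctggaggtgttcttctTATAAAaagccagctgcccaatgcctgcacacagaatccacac
Sprr1b: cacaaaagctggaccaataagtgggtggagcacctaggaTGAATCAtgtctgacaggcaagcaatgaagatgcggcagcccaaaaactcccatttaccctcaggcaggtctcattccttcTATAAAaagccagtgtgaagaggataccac
Krtdap: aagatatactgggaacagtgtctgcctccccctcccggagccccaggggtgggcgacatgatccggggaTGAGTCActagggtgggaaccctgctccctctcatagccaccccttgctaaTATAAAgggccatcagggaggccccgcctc

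Counted back from the start of transcription, TGANTCA begins at -198 in Sprr2h, at -146 and -116 in Sprr1a, at -111 in Sprr1b and at -81 in Krtdap. Of the 22 measured envelope genes, 17 had a promoter in the RefSeq table, and 9 of these 17 (52.9%) hold the motif, against 640 of 10444 genes tested (6.13%). TATAAA was in 7 of 17 (41.2%), against 947 of 10444 (9.07%). Lor, Ivl and Flg, which were not lower in all 5 tumours, hold both motifs as well. Of the 7 called genes 4 had a promoter, and 1 of them, Sprr2h, held each motif. A match describes letters in a window and not a bound site.

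Luminal genes were higher in CD29+CD24+ cells of some tumours. Krt8 was at 13.81, 13.67, 11.64, 10.43 and 10.86 in CD29+CD24+ cells of tumours A to E, against 12.08, 12.56, 11.27, 9.58 and 7.45 in Lin- cells. It was higher in each tumour but not called (1.49 ± 0.55, adjusted p = 0.42), and the difference ran from 0.36 in tumour C to 3.41 in tumour E. Its 3 probe sets gave 1.49 to 1.53. Its partner Krt18 was at 1.47 ± 0.50 (adjusted p = 0.368). Of 19 measured luminal genes, 12 had higher and 7 lower means, with a median of 0.37. In all 5 tumours 5 were higher and 1 was lower. The median was -0.006 without tumour A, 0.14 without tumour B and 0.57 without tumour D, and the list mean was 1.57 in tumour A, -0.22 in tumour C and -0.21 in tumour D. Pgr, the progesterone receptor (0.86 ± 0.40, adjusted p = 0.592), and Foxa1, a pioneer factor of the oestrogen receptor (0.86 ± 0.50, adjusted p = 0.722), were higher in all 5 tumours, by 2.05 and 2.52 in tumour A. Esr1, the oestrogen receptor itself, was at 2.60 in tumour A and -1.75 in tumour C and was lower in 3 of 5 tumours. Elf5, a factor of secretory progenitors, ran the other way in part, at 2.57 in tumour A and -2.11 in tumour E. Ehf (-0.35), Elf3 (-0.33) and Gata3 (-0.21) of the luminal list were each lower in 4 of 5 tumours, and Ly6d (-0.32) in all 5.

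Tumour A stood out for milk genes. The 12 measured members had a mean difference of 3.02 in tumour A, against 0.62, 0.05, -0.004 and 0.42 in tumours B to E. Wap, the whey acidic protein, was 6.52 higher there and -0.68 to -0.02 in the other tumours. Csn3, kappa-casein, was higher in all 5 tumours by 0.19 to 4.13 (1.62 ± 0.85, adjusted p = 0.657).

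The 10 genes with the largest differences among those higher in all 5 tumours were Clca1, Csn3, Krt8, Krt18, Pkp2, Tspan1, Pcp4, Ffar4, Cldn7 and Smim22, at 1.87 down to 1.29. Their adjusted p ran from 0.368 to 0.657. For some of them the shared sign rests on low signals. Clca1 differed by 0.03 in tumours D and E, at 2.87 to 2.92 in both gates. Ffar4 in tumours C, D and E and Csn3 in tumour D were in the low band in both gates. Pkp2, plakophilin 2 of desmosomes, was higher by 2.16, 1.43, 0.88, 1.08 and 1.60 in tumours A to E, and Cldn7, a claudin, by 2.10, 1.27, 1.0, 1.14 and 0.96. For Tspan1 (a tetraspanin), Pcp4 (a calmodulin-binding peptide) and Ffar4 (a receptor of long-chain fatty acids), tumour A exceeded 3.2 while tumours D and E stayed under 0.5.

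**Figure D4:**
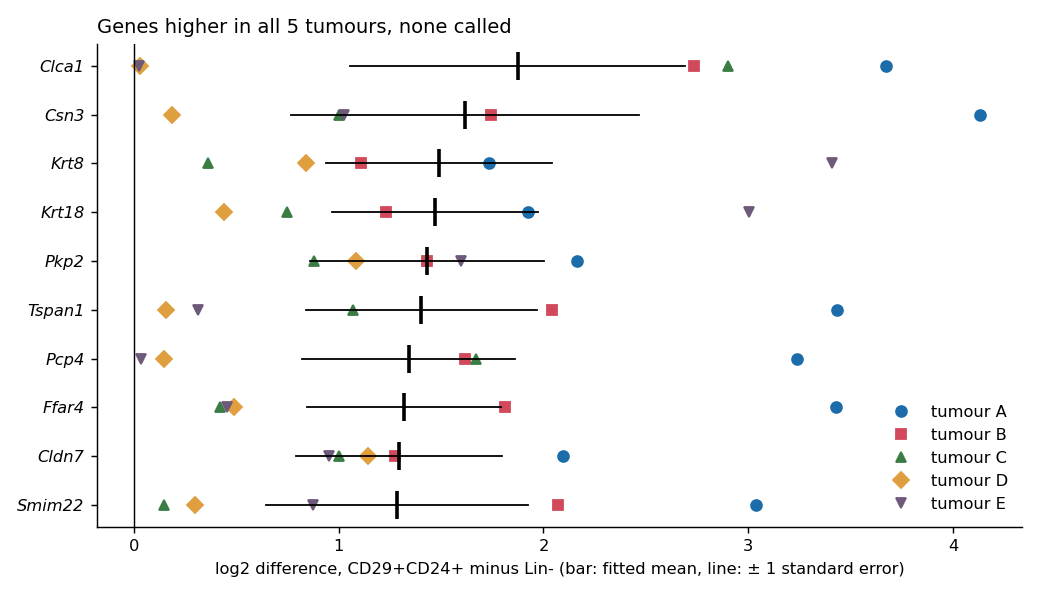
Log2 difference, CD29+CD24+ minus Lin- (horizontal axis), of the 10 genes with the largest mean differences among those higher in all 5 tumours; symbols are tumours, the bar is the fitted mean and the line 1 standard error to each side. Tumour A is the highest for 8 of the 10 genes, and tumour E for Krt8 (3.41) and Krt18 (3.0).

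Junction genes leaned slightly lower in CD29+CD24+ cells, with lower means for 18 of 23 measured and a median of -0.24, and none was called. The list mean was 0.53 in tumour A and -0.44 to -0.16 in the other tumours. In all 5 tumours 7 genes were lower and 2, Cldn7 and Dsg2 (desmoglein 2, 0.62 ± 0.15, adjusted p = 0.178), were higher. With all 24 arrays in the fit 1 gene of the list, Dsg2, was called higher, among 112 calls over all genes. Cdh1, E-cadherin, was at -0.05 ± 0.09 and Dsp, desmoplakin, at -0.07 ± 0.05. Dsc2 (-0.85 ± 0.28) and Rab25, a trafficking GTPase of epithelia (-0.76 ± 0.25), had the lowest means.

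Genes of cell division were slightly higher in CD29+CD24+ cells. The 22 measured members averaged 0.57, 0.17, 0.29, 0.33 and 0.55 higher in tumours A to E, 10 were higher in all 5 tumours and none was lower in all 5. The list level was 8.25, 7.47, 6.95, 7.92 and 7.99 in CD29+CD24+ cells, against 7.69, 7.30, 6.66, 7.59 and 7.44 in Lin- cells. Bub1, a kinase of the spindle checkpoint, was at 0.84 ± 0.32 (adjusted p = 0.431) and Mki67 at 0.36 ± 0.22, and none of the list was called.

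Wnt target genes differed little between the gates. Of 15 measured, 1 was lower and 1 higher in all 5 tumours, and the median was 0.08. Axin2, a feedback inhibitor of the pathway, averaged 7.69 ± 0.51 in CD29+CD24+ and 7.61 ± 0.42 in Lin- cells (SD, n = 5 each). Apc itself was at 0.32 ± 0.19 and not called. Its probe set was not checked against the mutant allele. Among 7 secreted antagonists, Wif1 was close in both gates (0.11 ± 0.11) and Sfrp2, which fibroblasts secrete, was at -2.02 ± 0.43, from -3.77 in tumour C to -0.50 in tumour D. Sfrp2 and Sfrp4 were called lower without tumour D.

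The antigens of the gate differed little in RNA. Cd24a averaged 0.22 ± 0.15 higher and Itgb1 0.18 ± 0.17 higher in CD29+CD24+ cells, and neither was called. Of 15 genes associated with mammary stem cells, the lowest were Vcam1 (-3.65 ± 0.78), an adhesion molecule that stromal cells also carry and that was called without tumour D, and Nrp1 (-1.65 ± 0.36). Lgr6, a receptor of R-spondins, was higher in all 5 tumours (0.45 ± 0.12, adjusted p = 0.219), and Procr was at -0.19 ± 0.15. Immediate early and dissociation genes had a median of -0.09, with Fos at 14.81 ± 0.22 in CD29+CD24+ and 14.84 ± 0.16 in Lin- cells (SD, n = 5 each). Medians were -0.11 for 16 hypoxia genes, -0.06 for 16 interferon genes and -0.03 for 13 Notch genes.

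The same gate difference was then compared between tumours and normal glands, with limma over 16 arrays and the genes that passed the filter on tumour arrays. The difference in tumours departed from that in normal glands for 294 genes (2.27%), of which 275 were higher, meaning less negative or more positive in tumours, and 19 were lower. Among the 5 genes with the largest upward departure were Krt14, Krt17 and Igfbp3 of the basal list. Krt14 was at 14.64 and 14.71 in CD29+CD24+ and Lin- cells of tumours, but at 3.97 and 11.37 in these gates of normal glands, a departure of 7.33 ± 0.77 (adjusted p = 0.00042). Igfbp3, an insulin-like growth factor binding protein, departed by 8.13 ± 0.64, Antxr1, an anthrax toxin receptor, by 7.31 ± 0.21, Krt17 by 7.30 ± 0.95 and Snai2 by 7.19 ± 0.69. Of the 19 measured basal genes, 11 departed upward. The list median was 0.02 in tumours and -5.96 in normal glands, where 16 of 19 were called lower in CD29+CD24+ cells, against 4.73% of all genes.

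Of the called genes, Saa3 (-5.55 ± 0.75), Esm1 (-3.54 ± 0.45), Cst6 (-3.15 ± 0.46) and Bmp6 (-2.37 ± 0.35) had lower differences in tumours than in normal glands, with adjusted p of 0.00153 to 0.00416. All of their normal means lay between 2.29 and 5.40, and the normal differences at -0.30 to 0.40. Cst6 (2.65 and 2.64 in CD29+CD24+ and Lin- cells) and Bmp6 (2.29 and 2.38) lay in the low band in normal glands. A drop there could hardly be seen, so their departures largely restate the tumour differences. These genes were called on the same tumour arrays, so the departure is not an independent test. Dapl1, an epithelial gene related to death-associated protein, departed by -2.65 ± 0.41 (adjusted p = 0.00549) and Casp14 by -2.53 ± 0.41 (adjusted p = 0.00749). Casp14 was also in the low band in normal glands, at 2.49 in CD29+CD24+ and 2.57 in Lin- cells. Cd93 was lower in normal CD29+CD24+ cells as well, at 3.27 in CD29+CD24+ and 6.22 in Lin- cells, and its departure was not called (-0.16 ± 0.81, adjusted p = 0.959). Plxdc2 went the other way, since its difference of -3.61 ± 0.33 in normal glands was larger than in tumours (departure 2.60 ± 0.42, adjusted p = 0.00713). Of the fibroblast genes, 8 of 23 departed upward and none downward. Of the 22 cornified envelope genes, 2 departed downward and none upward, against 19 downward over all 12975 genes. The tumours and glands differ in genotype as well as in histology, and the effects of these cannot be told apart.

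**Figure D5:**
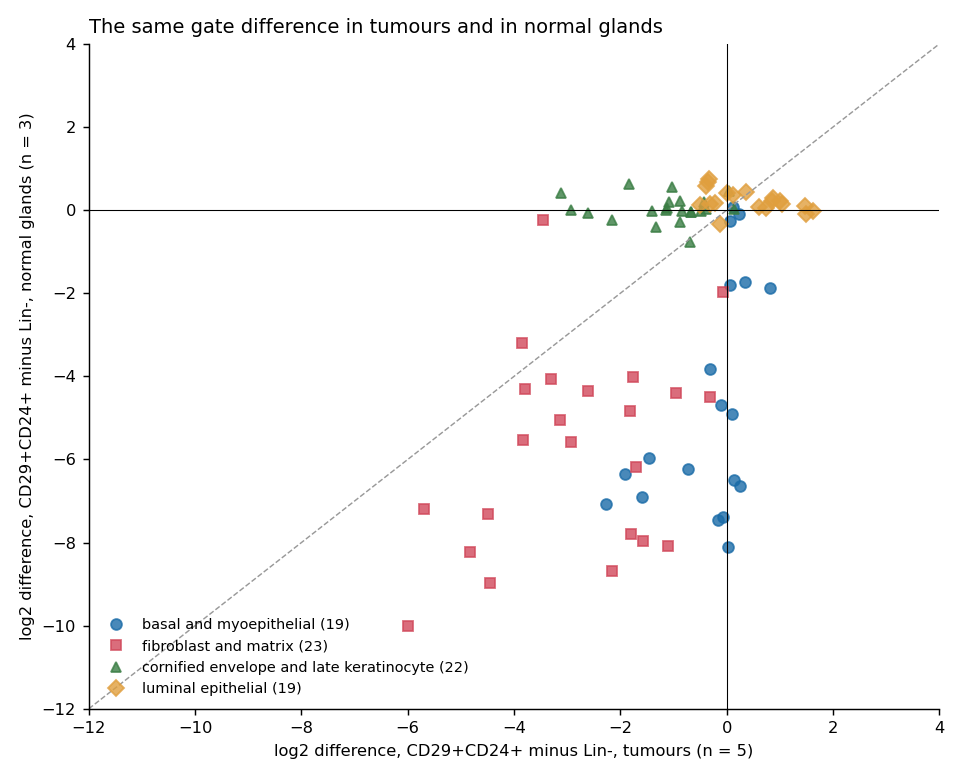
Log2 difference, CD29+CD24+ minus Lin-, in tumours (horizontal axis, n = 5) and in normal glands (vertical axis, n = 3) for the measured genes of 4 lists; the dashed line marks equal differences. Basal genes have a median of -5.96 on the vertical axis and 0.02 on the horizontal one, where 4 of 19 lie below -1. Of 22 cornified envelope genes, 20 lie left of 0 and 2 right of it, and the list median on the vertical axis is 0.004.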

How the data were processed

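Values are log2 signals per probe set of the Affymetrix mouse whole-genome array, deposited by the authors as normalised values. RMA, GCRMA and Partek are named per the submitters' processing notes; the sources used here give no role, order or version for them. Of 45101 probe sets, 34945 had 1 gene name in the platform's annotation, 932 several, 9160 none and 64 were controls. Probe sets above the 40th percentile of the 15 tumour arrays in at least 3 of them were kept (23148), and the one with the highest mean stood for its gene, which left 12975 of 18193 genes.

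limma 3.58.1 in R 4.3.3 (lmFit, eBayes with a variance trend) fitted the 3 tumour populations over 15 arrays with the tumour as a fixed block. The departure from normal glands was fitted over 16 arrays with the tumours as blocks and 1 level for the gland pools. With the group means removed, samples of a tumour correlated at 0.530 to 0.744 and samples of different tumours at no more than 0.359, so the letters pair the samples. Standard errors follow ±, or SD where written. The number of arrays limits the precision. The fit was tested on simulated data.

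Named were all called genes, filled up to 10 in each direction with the largest differences of 1 sign in all 5 tumours, the 2 members of highest mean of each list, the gate antigens, Apc, Ptprc, Pecam1, and the 5 highest and 5 lowest departures from normal glands. Not every gene this names is printed. Other list members, Cadm1 and Il18r1 were chosen after their values were seen, and the comparison and the 28 gene lists were chosen with earlier results of these data known. Alternatives were other blocks, filters, probe set rules, normalisations, an actin covariate and leaving out each tumour or pool. The pool letter is missing from the titles of 2 normal samples, which entered only as group members.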

Additional observations from a re-analysis of the deposited data

Results flagged for a closer look

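Within a group of 5 tumours, 106 sets of within-tumour differences were looked at for a tumour far from the other 4, and 7 had one, where chance gives about 5%. In tumour A, Cldn7 differed by 2.10 (0.96 to 1.27 in the others), Epcam, an epithelial adhesion molecule, by 0.65 (-0.16 to 0.07), and the milk gene list by 3.02 (-0.004 to 0.62). In tumour B, Coro1a, a leukocyte coronin, differed by -2.48 (0.03 to 0.17) and the lymphocyte list by -2.59 (-0.44 to 0.09). In tumour C, Acta1, skeletal muscle actin, differed by 1.66 (-0.05 to 0.07) and Mfge8, a milk fat globule protein, by -0.72 (0.29 to 0.53). No set had tumour D or E as the far value.

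The gate difference departed between tumours and normal glands for 294 genes by the test of the difference itself. The 10 named by rule were Igfbp3 (8.13), Krt14 (7.33), Antxr1 (7.31), Krt17 (7.30) and Snai2 (7.19), and Saa3 (-5.55), Esm1 (-3.54), Cst6 (-3.15), Dapl1 (-2.65) and Casp14 (-2.53). Cst6 and Casp14 lay in the low band in both gates of normal glands, where a drop could hardly be seen.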

How the results depend on the processing

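The 7 genes called kept their negative sign in each setting in which they were tested. The count moved to 0 with no replicate block and 0 with only the 10 arrays (adjusted p of the 7 genes 0.157 to 0.220), to 63 (61 lower, 2 higher; 6 of the 7 among them) with the tumour as a random block, to 112 (108 lower, 4 higher; all 7) with all 24 arrays, to 4 with the mean of a gene's probe sets and to 3 with an actin covariate. It was 5, 5 and 5 without the low-value filter, with quantile normalisation and without the variance trend, and 7 with the stricter filter (over the low band in 10 arrays), of which 6 were among the 7 genes reported (1 of the 7 was not tested there). Leaving out 1 tumour gave 0 to 85 calls, 0 to 84 lower and 0 to 1 higher: 4 without A, 0 without B, 3 without C, 85 without D and 0 without E. The causes of these changes were not tested. A fit that leaves out 1 tumour also has fewer samples, and the part of this was not tested either. The departures from normal glands, 294 with 275 higher and 19 lower, numbered 171 (164 and 7) with no replicate block and 468 (415 and 53) with the pools paired too, which rests on a number missing from 1 title. Quantile normalisation gave 243 (211 and 32). Leaving out 1 tumour or pool gave 160 to 408, with 142 to 382 higher and 10 to 79 lower; the lowest total was without pool H and the highest without pool F, and 79 lower came without tumour A. Over the named genes and these settings, 1142 values kept their side of the threshold, 53 lost a call and 17 gained one. Only the 7 called genes could lose a call, so all 53 losses are theirs. Most of the 1142 values belong to genes called in neither fit, so this number does not measure how stable the calls are. No value was counted as reversed, but a change of sign without a call was not counted. Slc4a1, the only measured erythroid gene, was at -0.012 as reported, 0.007 without tumour A and 0.011 without tumour B. Signals in the low band, not sequencing depth, limit what can be seen.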
